A study of Rattus norvegicus with 3 samples.

Results

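The cluster with the highest level of Alas2, an erythroid gene, was taken from each of 3 single-cell RNA libraries of rat temporomandibular condyle, so that 3 of 52 clusters are described here. It was cluster 14 of 15 in sham, cluster 13 of 18 in UAC and cluster 5 of 19 in UAC with miR-330. The clusters were chosen by the measured mean count of Alas2 alone, and the clusters had been made from the RNA counts of the same cells. Levels of Alas2 and of other genes against the rest of the clusters are therefore descriptions.

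Wild-type SD rats received AAV by articular injection into the temporomandibular joint and were kept for 8 weeks. The sham group received Vector AAV without UAC (unilateral anterior crossbite). The other groups had UAC with Vector AAV (UAC) or with miR-330 AAV (UAC with miR-330). Each group of 8 rats gave 16 condyles, pooled into 1 library of cells from cartilage and subchondral bone. The treatment label is the same for both UAC libraries, so which of them had miR-330 AAV is read from the sample title together with the series design text. The age of the rats is not stated in the labels.

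Red cells form in the marrow next to bone. Erythroid precursors first switch on Klf1, Gata1 and the erythropoietin receptor, divide, and then fill with haemoglobin while Alas2 drives haem synthesis and Slc4a1 is built into the membrane. Later stages stop dividing, lose the nucleus and keep haemoglobin RNA as most of what is left, so haemoglobin weighs on the scale of any erythroid cell group.

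The values are counts of UMIs, the tags that mark single captured RNA molecules. The libraries held 77668015 UMIs in sham, 92629658 in UAC and 97255383 in UAC with miR-330. The Alas2-highest cluster held 1549261 of them in sham, 3420003 in UAC and 2836373 in UAC with miR-330. These are 1.995% (exact binomial 95% interval 1.992 to 1.998), 3.692% (3.688 to 3.696) and 2.916% (2.913 to 2.920) of the library's UMIs. In size it ranked 14 of 15 clusters in sham, 11 of 18 in UAC and 14 of 19 in UAC with miR-330. The number of cells in it is not known, so fewer erythroid cells and less erythroid RNA per cell cannot be told apart. Intervals here and further on cover counting error only, since 1 library per condition gives no spread between replicates, and no test between conditions was made.

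The mean count of Alas2 that chose the cluster was 2.56 in sham, 0.258 in UAC and 2.51 in UAC with miR-330. The next cluster, just outside the rule, stood at 0.0472 (cluster 3), 0.0480 (cluster 11) and 0.126 (cluster 11). In UMIs per 1000000 UMIs of the cluster (CPM of all UMIs), Alas2 was at 563 in sham, 49.7 in UAC and 409 in UAC with miR-330, which is 54.2-fold, 5.38-fold and 19.8-fold the level of the next cluster. The choice was clear-cut in sham and in UAC with miR-330 and much closer in UAC.

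The label of erythroid cells held only in part. Klf1, a transcription factor of the red lineage, stood in CPM of all UMIs at 48.4 in the Alas2-highest cluster of sham, at 9.36 in UAC and at 33.5 in UAC with miR-330. Another cluster, the one with the highest Klf1 outside the Alas2-highest cluster and called the Klf1 cluster from here on, stood at 38.6 (cluster 13), 61.5 (cluster 11) and 81.8 (cluster 11). Slc4a1, the anion exchanger of the red cell membrane, stood at 134, 24.9 and 122 in the Alas2-highest cluster and at 10.4, 31.2 and 68.9 in the Klf1 cluster. So Alas2 and Slc4a1 led in sham and in UAC with miR-330, while in UAC the Klf1 cluster was ahead for Klf1 and Slc4a1. The Klf1 cluster was the larger by far, with 14.6%, 14.9% and 15.8% of the library's UMIs.

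**Figure D1:**
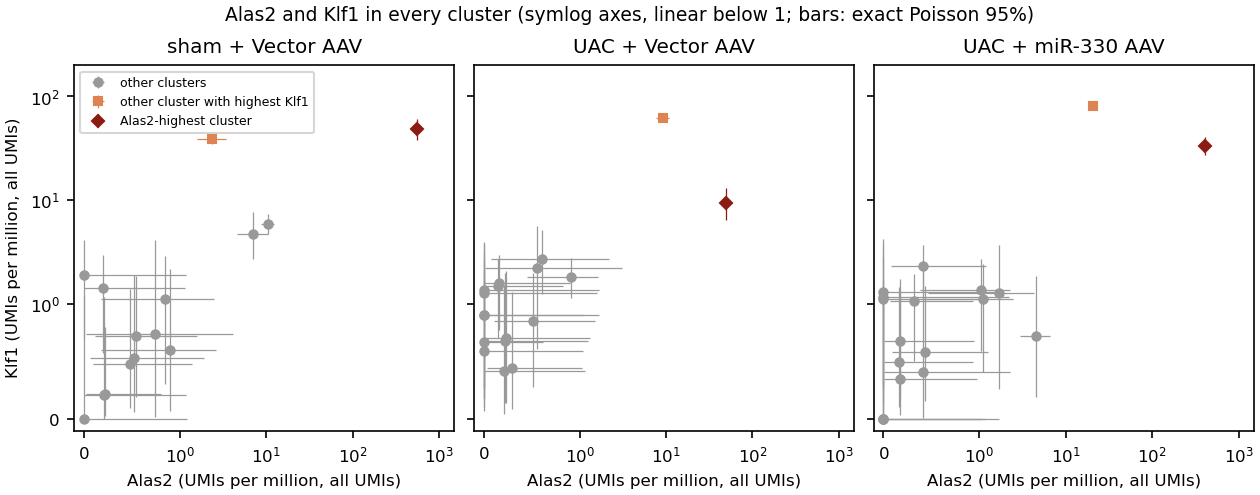
Alas2 (x axis) against Klf1 (y axis), both in CPM of all UMIs on symlog axes, for each cluster of the 3 libraries, with exact Poisson 95% bars. The Alas2-highest cluster stands alone on the x axis at 563, 49.7 and 409, and the Klf1 cluster has more Klf1 than it in UAC and in UAC with miR-330.

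Haemoglobin was a minority of the UMIs of the Alas2-highest cluster in all 3 libraries. The gene AABR07060872.1 (ENSRNOG00000049829), which the tables do not describe, made up 19.3% of its UMIs in sham, 27.7% in UAC and 24.0% in UAC with miR-330. Named immunoglobulin genes (Ighm, Igh-6, Jchain, Ighg1) made up 9.45%, 15.9% and 12.4%. Haemoglobin genes made up 18.05% (17.99 to 18.11), 2.33% (2.32 to 2.35) and 15.01% (14.96 to 15.05). By composition the group was thus mixed in all 3 libraries, with haemoglobin a small fraction in UAC, and it is called the Alas2-highest cluster here. Mitochondrial genes held 7.16%, 6.44% and 4.17%, and ribosomal protein genes 5.63%, 6.88% and 5.11%.

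**Figure D2:**
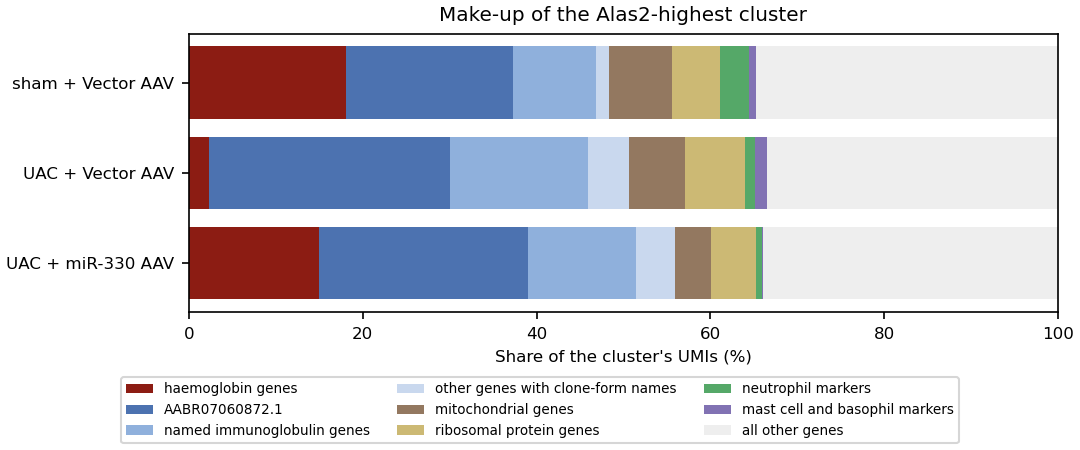
Share of the UMIs of the Alas2-highest cluster (x axis, percent) by gene class, 1 bar per library. The haemoglobin share is 18.05% in sham, 2.33% in UAC and 15.01% in UAC with miR-330, and AABR07060872.1 is the widest named segment in each.

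Haemoglobin RNA of the whole library was nonetheless gathered in this cluster. It held 83.0% of the library's haemoglobin UMIs in sham, 65.0% in UAC and 79.8% in UAC with miR-330. Over the whole library haemoglobin was 0.434%, 0.132% and 0.549% of UMIs, so the low share in UAC was not made up for by other clusters. The next cluster by haemoglobin share reached 0.250%, 0.260% and 0.562%. Free RNA was not subtracted, and the median cluster held 0.0176%, 0.00921% and 0.0125% haemoglobin, the lowest 0.0102%, 0.00406% and 0.00893%.

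Genes of successive erythroid stages had different shares in the Alas2-highest and the Klf1 cluster, and other clusters held some of them too. In sham cluster 3 held 133 Alas2, 76 Klf1 and 117 Slc4a1 UMIs, against 27, 437 and 118 in the Klf1 cluster. In UAC cluster 5 held 80 Slc4a1 UMIs, against 85 in the Alas2-highest cluster. Of the library's Alas2 UMIs, 81.1% (78.7 to 83.4) lay in the Alas2-highest cluster in sham, 53.0% (47.3 to 58.5) in UAC and 75.8% (73.6 to 78.0) in UAC with miR-330. For Slc4a1 the share was 41.5% (37.2 to 46.0), 13.4% (10.9 to 16.3) and 24.0% (21.9 to 26.3), and for Klf1 it was 11.8% (9.39 to 14.6), 3.31% (2.28 to 4.64) and 6.69% (5.45 to 8.12). The share of Alas2 describes the choice of the cluster, while Klf1 lay mostly in another. The Klf1 cluster held 68.7%, 87.6% and 88.3% of the Klf1 UMIs. Early genes went the same way. Car1, a carbonic anhydrase of erythroid progenitors, had 1.30%, 1.06% and 1.68% of its UMIs in the Alas2-highest cluster and 91.3%, 94.5% and 95.5% in the Klf1 cluster. Epor, the erythropoietin receptor, had 8.84%, 5.78% and 5.14% against 65.7%, 87.6% and 87.6%. Mki67, a gene of dividing cells, had 0.668%, 1.07% and 1.34% of its UMIs in the Alas2-highest cluster, so nearly all of its UMIs lay in other clusters. Ahsp, which holds free alpha globin, had 27.2%, 5.02% and 12.0% against 49.3%, 90.5% and 85.7%. Its share in the Alas2-highest cluster lay between those of Slc4a1 and Klf1 in each library. In UAC that share was under the 5.78% of Epor, and its share in the Klf1 cluster was above the 87.6% of Klf1.

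**Figure D3:**
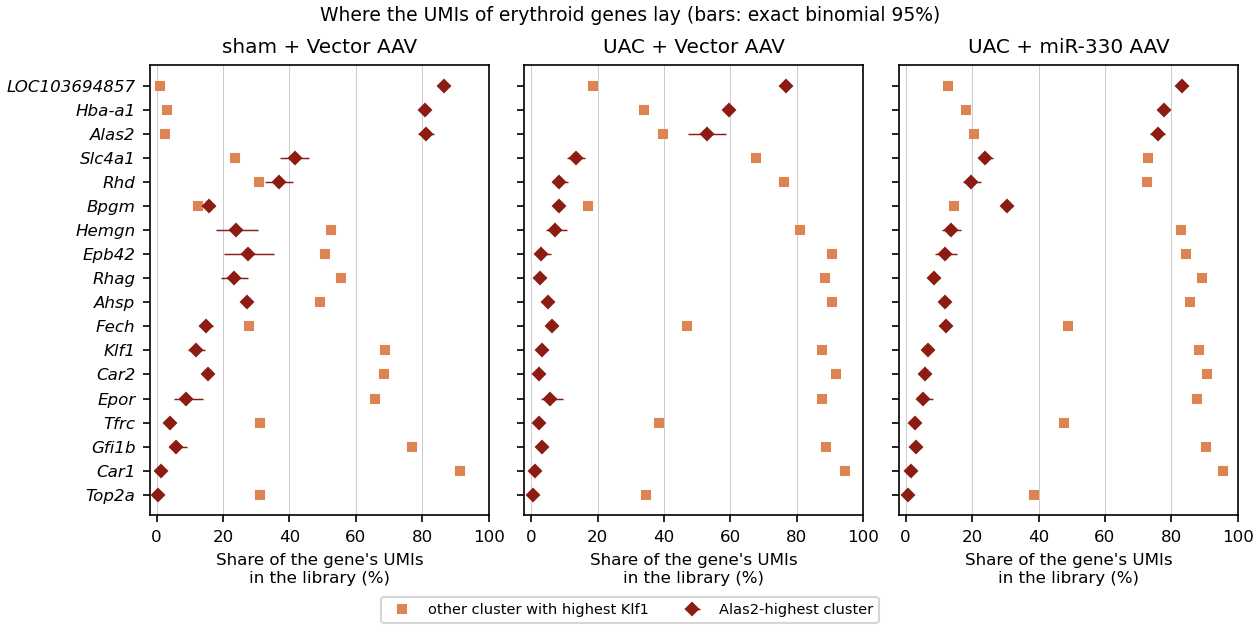
Share of each gene's UMIs in the library (x axis, percent) that lay in the Alas2-highest cluster (diamonds, exact binomial 95% bars) and in the Klf1 cluster (squares), 1 panel per library. Alas2, Hba-a1 and LOC103694857 have more than 50% of their UMIs in the Alas2-highest cluster in each library, with 53.0% for Alas2 in UAC, and Klf1, Epor and Car1 lie mostly in the Klf1 cluster.

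Over the whole library the 3 markers did not move together. Alas2 was at 13.9 CPM of all library UMIs in sham, 3.47 in UAC and 15.7 in UAC with miR-330. Klf1 was at 8.19, 10.4 and 14.6, and Slc4a1 at 6.45, 6.83 and 14.9. Alas2 was therefore lowest in UAC over the library as well, while Klf1 and Slc4a1 were not.

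To compare the conditions, levels are given from here on in CPM without haemoglobin, UMIs per 1000000 UMIs of the cluster that are not of haemoglobin genes, a scale that the haemoglobin share cannot move. UAC against sham asks what the crossbite changes, and UAC with miR-330 against UAC asks what miR-330 AAV changes under it. Both comparisons share the UAC library, so a low or high value there moves both. A gene with at least 50 UMIs in the 2 clusters together was called when its level differed at least 2-fold and the exact Poisson 95% intervals did not overlap. In UAC against sham 106 of 5720 genes were called higher (1.85%) and 530 lower (9.27%). In UAC with miR-330 against UAC 1335 of 6616 were called higher (20.2%) and 272 lower (4.11%). The scale bears on these counts. The median log2 ratio of the genes compared was -0.21 in UAC against sham and 0.39 in UAC with miR-330 against UAC, and in CPM of all UMIs it was 0.04 and 0.19. Of the genes called in UAC against sham, 16.7% were higher, but 40.0% were in CPM of all UMIs, 35.8% after centring on the median gene. Leaving out abundant genes of clone-form name gave 30.4%, leaving out mitochondrial, ribosomal protein and immunoglobulin genes gave 21.0%, and leaving out both gave 49.9%. In UAC with miR-330 against UAC 83.1% were higher, with 70.5% in CPM of all UMIs and 54.0% after centring. The choice of cluster bears on them too. The Klf1 cluster of UAC was added to its Alas2-highest cluster, as the cluster there with at least 10% of the highest Alas2 level. Then 86.9% of the genes called in UAC against sham were higher, and 14.1% in UAC with miR-330 against UAC. The Klf1 clusters of the other libraries were not added. This split thus compares unlike clusters, as the added cluster had 13758002 UMIs beside 3420003 in the Alas2-highest cluster of UAC.

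Within the Alas2-highest cluster the erythroid markers were lowest in UAC. Alas2 (ENSRNOG00000000167) was at 688 CPM without haemoglobin (643 to 735) in sham, 50.9 (43.5 to 59.2) in UAC and 482 (454 to 510.1) in UAC with miR-330. It was 13.5-fold lower in UAC than in sham (exact conditional interval 11.5 to 16.0) and 9.46-fold higher (8.05 to 11.2) in UAC with miR-330 than in UAC. Since Alas2 chose the cluster, these ratios describe it. Slc4a1 (ENSRNOG00000020951) stood at 164, 25.4 and 144, or 6.44-fold lower (4.98 to 8.39) and 5.66-fold higher (4.45 to 7.26). Klf1 (ENSRNOG00000003443) stood at 59.1, 9.58 and 39.4, or 6.17-fold lower (4.03 to 9.64) and 4.11-fold higher (2.73 to 6.35). For Klf1 and Slc4a1, which the rule did not use, the intervals of UAC lay apart from those of both other libraries, beside 9.27% of genes called lower and 20.2% called higher in the same comparisons. The result for Klf1 hangs on the cluster taken in UAC. With the Klf1 cluster of UAC added, Klf1 stood at 51.5 (48.1 to 54.98) in UAC and was called in neither comparison, being 1.15-fold lower than sham (0.894 to 1.45), with UAC with miR-330 1.31-fold lower than UAC (1.06 to 1.63). The Klf1 clusters of the other libraries were not added, so this rise of Klf1 in UAC was fixed by the addition. Slc4a1 then stood at 30.1 and kept its calls, but these calls too compare unlike clusters. In the Klf1 clusters themselves Slc4a1 stood at 10.4 CPM of all UMIs in sham, 31.2 in UAC and 68.9 in UAC with miR-330. Alas2, which chose these clusters too, stood at 17.4. Epor had 16, 13 and 17 UMIs in the cluster, too few to be compared.

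Relative to haemoglobin the erythroid markers had another order. Per 100000 haemoglobin UMIs of the same cluster, a scale chosen after the values were seen, Alas2 stood at 312 in sham, 213 in UAC and 273 in UAC with miR-330. Slc4a1 stood at 74.4, 107 and 81.5, and Klf1 at 26.8, 40.1 and 22.3. By these values Alas2, which chose the cluster, was lowest in UAC, while Slc4a1 and Klf1 were highest there. Intervals on this scale are not given here, so the order is of the values alone. The value of Klf1 rests on 32 UMIs in UAC and 75 in sham and is not shown to differ between them.

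Haemoglobin genes followed Alas2. In all, 9 of 22 names of the list were listed in the tables and 8 had UMIs in the clusters. Summed, they stood at 220224 CPM without haemoglobin in sham, 23877 in UAC and 176556 in UAC with miR-330. UAC was 9.22-fold lower than sham (9.15 to 9.30), and UAC with miR-330 was 7.39-fold higher than UAC (7.34 to 7.45). All 6 names with enough UMIs were lower in UAC and higher in UAC with miR-330. These names are outside the genes counted above. Hba-a1 (ENSRNOG00000029886), an alpha chain, stood at 61586, 7208 and 54159. LOC103694857, counted as a beta-type chain by assumption, stood at 106718, 11411 and 76476. The copies are close to identical, so the split of UMIs among them is uncertain. Alpha-type names made up 40.8% (40.6 to 41.0), 42.1% (41.8 to 42.5) and 44.2% (44.0 to 44.3) of the haemoglobin UMIs. The balance of both chain types thus varied little beside a 9.22-fold range in their sum. Embryonic Hbe1 had 0 UMIs in the cluster of sham and UAC and 2 in that of UAC with miR-330, where 3 counts would be 2.36, 0.898 and 1.24 CPM.

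For each list of genes below, counts stand beside 9.27% of all genes called lower and 1.85% higher in UAC, and beside 20.2% higher and 4.11% lower in UAC with miR-330. The medians stand beside -0.30 and 0.45 for all genes with at least 10 UMIs. After centring, 6.12% of all genes were lower and 3.41% higher in UAC, and 9.73% higher and 8.30% lower in UAC with miR-330. In CPM of all UMIs 5.76% were lower and 3.84% higher in UAC, and 13.7% higher and 5.74% lower in UAC with miR-330. Without haemoglobin, mitochondrial, ribosomal protein and immunoglobulin genes these shares were 8.29%, 2.21%, 17.2% and 4.68%. Counts of lists under each of these scalings stand beside its shares.

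Haem synthesis runs from Alas2 in the mitochondrion through Alad and Urod to Fech, which inserts the iron. Since Alas2 chose the cluster, the list is counted here without it, and it then summed to 1226 in sham, 384 in UAC and 638 in UAC with miR-330. These are levels of the cluster and not of the library. With Alas2, the cluster held 6.78%, 3.60% and 6.01% of the library's UMIs for this list. The Klf1 cluster held 25.4%, 33.3% and 36.2%. In UAC 9 of 12 genes compared were lower than in sham and 0 higher, beside 9.27% and 1.85%, with a median log2 ratio of -1.82 beside -0.30. In UAC with miR-330 6 of 12 were higher than in UAC and 1 lower, beside 20.2% and 4.11%, with a median of 1.08 beside 0.45. In CPM of all UMIs 6 were lower in UAC, and 3 were higher in UAC with miR-330, beside 5.76% and 13.7% of all genes. After centring these were 6 and 2, beside 6.12% and 9.73%. Fech stood at 148, 26.9 and 93.3, or 5.50-fold lower (4.25 to 7.15) and 3.46-fold higher (2.70 to 4.47). The carrier Slc25a39 stood at 220.5, 53.9 and 160 and was called in both comparisons in the same directions. Alas1, the form of the enzyme in other tissues, went its own way, with 98.5, 57.2 and 13.3. It was the 1 gene of the list called lower in UAC with miR-330, by 4.31-fold (2.95 to 6.48).

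Iron handling brings iron in through Tfrc and stores it in ferritin. Its list of 21 listed genes summed to 6024, 3388 and 5011. In UAC 8 of 16 genes were lower (9.27% of all genes) and 0 higher, and in UAC with miR-330 7 of 17 were higher (20.2% of all genes) and 0 lower, with medians of -0.93 and 0.71. After centring 7 were lower in UAC, but only 2 were higher in UAC with miR-330, beside 9.73% of all genes, so the rise of this list depends on the scale. The ferritin chains Ftl1 and Fth1 led the list and were not called. Slc25a37, which carries iron into the mitochondrion, stood at 132, 14.97 and 61.8, the largest called fall of the list in UAC at 8.84-fold (6.41 to 12.4). For haem breakdown and export 4 of 6 genes were lower in UAC and 3 of 6 higher in UAC with miR-330, beside 9.27% and 20.2%. Blvrb, a reductase abundant in red cells, led these changes with 132, 34.7 and 103. Its level over the whole library was 26.0, 30.5 and 35.2 CPM of all library UMIs, so there it was not lower in UAC. Under each of the other scalings tried (CPM of all UMIs, without abundant gene classes, and after centring) Hmox1 and Slc48a1 lost their calls in UAC, which left 2 of 6, and Hmox1 and Hmox2 theirs in UAC with miR-330, which left 1 of 6 (Blvrb).

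Proteins that guard haemoglobin differed among themselves. Ahsp stood at 1016, 104 and 397, or 9.81-fold lower (8.70 to 11.1) and 3.83-fold higher (3.38 to 4.34). Its level over the whole library was 61.0, 74.4 and 82.0 CPM of all library UMIs, so there it was not lower in UAC. In UAC 90.5% of its UMIs lay in the Klf1 cluster. Prdx2, a peroxidase abundant in red cells, stood at 982, 179 and 528, or 5.49-fold lower (4.97 to 6.06) and 2.95-fold higher (2.67 to 3.25). Over the chaperone and redox list 6 of 18 genes were lower in UAC and 0 higher, beside 9.27% and 1.85%, and in UAC with miR-330 4 of 18 were higher and 3 lower, beside 20.2% and 4.11%. After centring 5 were lower and 1 higher in UAC, and 3 higher and 5 lower in UAC with miR-330. With medians of -0.44 and 0.05, the second of them under the 0.45 of all genes and at -0.15 in CPM of all UMIs, the list as a whole did not follow Ahsp. Per 100000 haemoglobin UMIs Ahsp stood at 461, 434 and 225, so relative to haemoglobin it was lowest in UAC with miR-330.

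The red cell membrane is held by a protein skeleton tied to Slc4a1 and the Rh proteins. The 26 listed genes of this list, Slc4a1 among them, summed to 1489, 597 and 1125. These too are levels of the cluster, which held 2.18%, 1.85% and 2.15% of the library's UMIs for the list. The Klf1 cluster held 12.9%, 16.1% and 20.3%. In UAC 11 of 17 were lower (9.27% of all genes) and 0 higher, and in UAC with miR-330 12 of 20 were higher (20.2% of all genes) and 0 lower, with medians of -1.84 and 1.47. After centring 9 were lower in UAC and 11 higher in UAC with miR-330. Rhag stood at 78.8, 5.69 and 37.3, or 13.8-fold lower (8.42 to 24.0) and 6.56-fold higher (3.97 to 11.4). Rhd stood at 146, 13.2 and 72.6, or 11.1-fold lower (7.93 to 15.7) and 5.51-fold higher (3.94 to 7.86). The most abundant gene of the list, Cd47, is made by many cell types and was called in neither comparison. Epb42, which binds Slc4a1, had 7 UMIs in UAC against 40 in sham and 49 in UAC with miR-330. Its level over the whole library was 1.88, 2.53 and 4.22 CPM of all library UMIs, so there it was not lower in UAC.

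Gas transport also relies on carbonic anhydrase and on Bpgm, which makes the bisphosphoglycerate that loosens oxygen from haemoglobin. Car2 stood at 721, 82.0 and 354, or 8.79-fold lower (7.67 to 10.1) and 4.31-fold higher (3.76 to 4.96). Its level over the whole library was 75.5, 125 and 153 CPM of all library UMIs, so there it was not lower in UAC. In UAC 91.9% of its UMIs lay in the Klf1 cluster and 2.38% in the Alas2-highest cluster. Bpgm stood at 192, 37.1 and 289, or 5.18-fold lower (4.15 to 6.48) and 7.78-fold higher (6.42 to 9.49). Of 4 genes compared 2 were lower in UAC and 3 higher in UAC with miR-330, beside 9.27% and 20.2%, but Car1 lost its call in CPM of all UMIs and after centring. Within the cluster of UAC with miR-330 Bpgm was thus above its sham level, and Car2 was below its own.

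Among transcription factors of the lineage, 8 of 15 were lower in UAC (9.27% of all genes) and 0 higher, and 8 of 15 were higher in UAC with miR-330 (20.2% of all genes) and 0 lower, with medians of -1.11 and 1.10. After centring 6 were lower in UAC and 6 higher in UAC with miR-330. Sox6, which acts late in maturation, stood at 70.9, 22.2 and 85.0, and Foxo3 at 65.4, 26.9 and 87.5. E2f2 stood at 63.8, 13.8 and 49.8, or 4.63-fold lower (3.19 to 6.80) and 3.61-fold higher (2.55 to 5.19). The summed level of 678, 292 and 665 was alike in sham and in UAC with miR-330. These factors also act in other cells, and the Alas2-highest cluster held under 2% of the list's UMIs, with 0.906%, 0.850% and 1.12%.

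Terminal maturation covers removal of organelles and the last remodelling of the cell. Of its genes 10 of 22 were lower in UAC (9.27% of all genes) and 0 higher, and 10 of 24 were higher in UAC with miR-330 (20.2% of all genes) and 0 lower, with medians of -1.12 and 1.06. In CPM of all UMIs 7 were lower and 7 higher, beside 5.76% and 13.7% of all genes. After centring 7 were lower and 4 higher, beside 6.12% and 9.73%. Hemgn stood at 34.7, 5.99 and 36.1, or 5.79-fold lower (3.34 to 10.4) and 6.03-fold higher (3.67 to 10.3). Its level over the whole library was 2.38, 2.99 and 6.55 CPM of all library UMIs, so there it was not lower in UAC. Bnip3l, which clears mitochondria, stood at 271, 74.2 and 192. Tent5c, the most abundant gene of the list in UAC, was not called and stood at 196, 279.6 and 387. It is also made by plasma cells.

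Genes of erythropoietin signalling moved less. In UAC 5 of 17 were lower and 0 higher, beside 9.27% and 1.85%, in UAC with miR-330 4 of 18 were higher and 1 lower, beside 20.2% and 4.11%, and the medians of -0.37 and 0.50 lay beside -0.30 and 0.45 for all genes. In CPM of all UMIs and after centring 1 of 17 was lower in UAC and 2 of 18 higher in UAC with miR-330, near the share of all genes. Bcl2l1, a survival gene of erythroblasts, was the largest called change each way at 53.6, 12.6 and 55.2. Kit, the receptor of early progenitors and mast cells, was the gene called lower in UAC with miR-330, at 18.1, 26.0 and 8.71. The progenitor list had 0 of 9 genes called in UAC, and in UAC with miR-330 1 higher (Myb, which lost its call after centring) and 3 lower (Gata2, Kit, Myc). Gata2, which is also a mast cell marker, stood at 61.4, 83.8 and 12.0. The progenitor list, at medians of -0.20 and -0.42, thus did not share the fall of the maturation list in UAC, and in CPM of all UMIs its first median was 0.06.

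Genes of cell division were counted by phase. For G2 and M phase 13 of 24 were lower in UAC (9.27% of all genes) and 0 higher, and 16 of 28 were higher in UAC with miR-330 (20.2% of all genes) and 0 lower, with medians of -1.01 and 1.20. In CPM of all UMIs 5 were lower and 13 higher, beside 5.76% and 13.7% of all genes. After centring 6 were lower and 7 higher, beside 6.12% and 9.73%. For S phase 2 of 17 were lower in UAC and 1 of 17 lower in UAC with miR-330, beside 9.27% and 4.11% of all genes, with medians of -0.61 and 0.29 and 0 called higher. Mki67 stood at 104, 70.4 and 253, or 3.60-fold higher in UAC with miR-330 than in UAC (3.09 to 4.21). No phase was called for any cell, and the levels are those of a cluster with under 2% of the library's Mki67 UMIs.

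Other programmes were compared in the same way. For glycolysis 1 of 12 genes was lower in UAC (Tpi1, which lost its call in CPM of all UMIs and after centring) and 4 of 12 lower in UAC with miR-330, beside 9.27% and 4.11% of all genes, with 0 higher, and medians of -0.39 and -0.36. After centring 7 of 12 were lower in UAC with miR-330. Ldha stood at 423, 390.1 and 147. For stress and immediate early genes 1 of 19 was higher and 1 lower in UAC, beside 1.85% and 9.27%, and 3 of 18 were higher and 1 lower in UAC with miR-330, beside 20.2% and 4.11%, with medians of 0.05 and 0.09, the second of which was -0.11 in CPM of all UMIs, where 1 was higher. Of the interferon response list 4 of 5 genes were lower in UAC and 6 of 8 higher in UAC with miR-330, beside 9.27% and 20.2%, with medians of -1.16 and 1.71. After centring these were 3 and 5. Rsad2 stood at 63.0, 6.59 and 59.3, or 9.57-fold lower (5.91 to 16.1) and 9.01-fold higher (5.72 to 14.8). Over the 16 pathway lists other than haemoglobin, with Epor, Ctgf and Fgfr1 counted as a list, 14 lay below the median of all genes in UAC against sham and 5 in UAC with miR-330 against UAC.

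**Figure D4:**
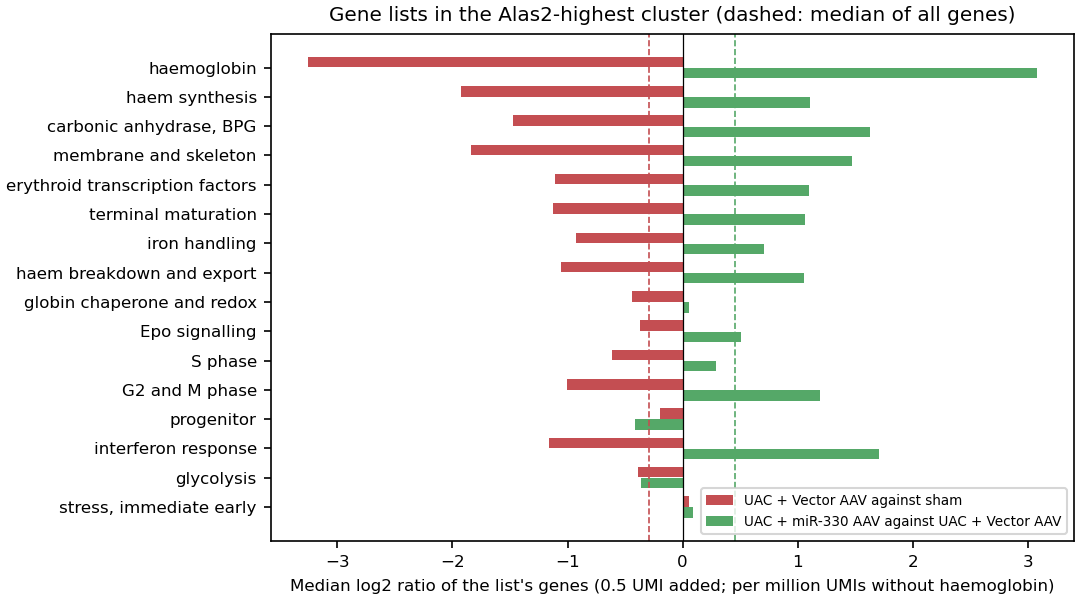
Median log2 ratio (x axis) of the genes with at least 10 UMIs in each pathway list, in CPM without haemoglobin, for UAC against sham and for UAC with miR-330 against UAC, with dashed lines at the median of all genes. Among the lists shown haemoglobin lies farthest from 0 at -3.26 and 3.08, and both comparisons share the UAC library.

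Ctgf and Fgfr1, which the study names as targets of miR-330 together with Epor, were also looked at. Ctgf, a matrix signal of the joint, had 97, 30 and 97 UMIs and stood at 76.4, 8.98 and 40.2, or 8.51-fold lower (5.60 to 13.3) and 4.48-fold higher (2.95 to 6.99). It came to 0.539%, 0.300% and 1.14% of the library's Ctgf UMIs, so nearly all of it lay in other clusters. Over the whole library Ctgf stood at 232, 108 and 87.5 CPM of all library UMIs, so there it was not higher in UAC with miR-330 than in UAC. Fgfr1 had 13, 12 and 27 UMIs in the cluster, too few to be compared. Library levels of the other targets were 21.4, 14.6 and 19.6 for Fgfr1 and 2.33, 2.43 and 3.40 for Epor. Unlike Ctgf, both were higher in UAC with miR-330 than in UAC.

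Markers of other cell types were present beside the erythroid genes, and they too differed among the libraries. Their part in the results above was not tested. For B cells 13 of 14 markers were listed and all 13 had UMIs, with a summed level of 102724, 122933 and 127112 led by Ighm, and with 10.8%, 25.7% and 17.5% of the library's UMIs for these genes in the cluster. In UAC 4 of 10 were lower and 0 higher, and in UAC with miR-330 8 of 13 were higher and 0 lower, beside 9.27% lower and 20.2% higher of all genes, with medians of -0.85 and 1.73, so in UAC the sum and the median differed in direction. Ebf1, a factor of early B cells, stood at 956, 229 and 1894. A plasma cell list, chosen after the values were seen, summed to 4047, 5913 and 7167, with 4 of 11 higher in UAC and 0 lower, beside 1.85% and 9.27%. Mzb1, a secretion helper of plasma cells, stood at 605, 1797 and 1373. B-lineage RNA was thus abundant in all 3 libraries, and highest in both UAC libraries by summed level.

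Granulocyte genes followed another order. Mast cell and basophil markers, 9 of 10 listed and all 9 with UMIs in each library, summed to 9239, 13881 and 988 and were led by Mcpt10. The cluster held 62.1%, 92.0% and 4.84% of the library's UMIs for them. All 9 were lower in UAC with miR-330 than in UAC, by 14.0-fold in sum (13.5 to 14.6), beside 4.11% of all genes, and in UAC 1 of 9 was higher than in sham (Tpsab1). An eosinophil list, chosen after the values were seen, summed to 4218, 3947 and 166, led by Prg2 at 3784, 3764 and 145. RNA of these genes was thus gathered in the Alas2-highest cluster in sham and UAC and not in UAC with miR-330, where it lay mostly in other clusters. The 14.0-fold is therefore a difference of the cluster's level and no measure of the library.

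Neutrophil markers, 15 of 15 listed, summed to 40391, 12192 and 8031, led by RatNP-3b in sham and UAC and by S100a9 in UAC with miR-330, with Ltf at 0 in the cluster of sham and of UAC with miR-330. In UAC 6 of 14 were lower and 1 higher, and in UAC with miR-330 7 of 14 were lower and 1 higher, beside 9.27% and 4.11% of all genes lower. Elane, an enzyme of young granules, stood at 866, 991 and 9.54, or 104-fold lower (69.1 to 164) in UAC with miR-330 than in UAC. The cluster held 66.3%, 80.2% and 0.354% of the library's Elane UMIs. Over the whole library Elane stood at 21.4, 44.6 and 66.8 CPM of all library UMIs, and in UAC with miR-330 it was highest in cluster 18, so it lay elsewhere there and was not lower in the library. Genes of primary granules, a list chosen after the values were seen, summed to 49376, 9749 and 3551. The cluster held 1.52%, 0.655% and 0.411% of the library's UMIs for the neutrophil markers and 20.3%, 6.38% and 1.41% for the primary granule genes.

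The remaining immune lists were small by level. Macrophage markers, 13 of 13 listed, summed to 1699, 907 and 1549, led by Lyz2, with Marco at 0 in the cluster of sham and UAC, and 2 of 9 (Lyz2, Vcam1) were lower in UAC and 5 of 9 higher in UAC with miR-330, beside 9.27% and 20.2%. In CPM of all UMIs and after centring 0 were lower in UAC and 1 higher in UAC with miR-330. T and NK cell markers, 11 of 13 listed, summed to 553, 668 and 92.5, led by Nkg7. The low sum in UAC with miR-330 was that of Nkg7 and Gzmb, the 2 with enough UMIs to be called, while the median log2 ratio of the 7 with at least 10 UMIs was 1.91 against UAC, with Gzma at 0 in the cluster of all 3 libraries and Cd8a at 0 in that of sham. Gzmb stood at 23.6, 233 and 18.7, or 9.84-fold higher in UAC than in sham (6.84 to 14.7) and 12.5-fold lower in UAC with miR-330 than in UAC (9.22 to 17.2). The cluster held 14.4%, 86.0% and 7.67% of the library's Gzmb UMIs, and over the whole library Gzmb stood at 2.68, 9.75 and 6.04 CPM of all library UMIs. Dendritic cell markers, 8 of 8 listed, summed to 1029, 559 and 573 with Xcr1 and Clec9a at 0 in the cluster of all 3 libraries, and megakaryocyte markers, 10 of 11 listed, summed to 45.7, 40.1 and 46.5, led by Pf4, with Itga2b, Gp1bb and Gp1ba at 0 in all 3 clusters.

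The labels name the cells as chondrocytes and osteoclast, so both were looked for. Chondrocyte markers, 10 of 10 listed, summed to 2284, 158 and 1941, led by Col2a1, with Prg4 at 0 in the cluster of sham. All 6 compared were lower in UAC and all 6 higher in UAC with miR-330, beside 9.27% and 20.2% of all genes, and Col2a1 was 15.5-fold lower (13.5 to 17.9) and 12.9-fold higher (11.3 to 14.8). Osteogenic markers, 8 of 8 listed, summed to 4484, 272 and 2517, led by Col1a1 at 3788, 128 and 1715, with Sp7 at 0 in the cluster of sham and UAC, and 5 of 6 were lower in UAC and 4 of 6 higher in UAC with miR-330, beside the same 9.27% and 20.2%. Fibroblast markers, 7 of 7 listed, summed to 498, 24.6 and 183, led by Col3a1, with Pdgfrb at 0 in the cluster of UAC, and 3 of 3 were lower and 3 of 3 higher, beside 9.27% and 20.2%. The sums of the matrix lists were thus lowest in UAC, and so were the levels of Alas2, Klf1 and Slc4a1. The cluster held 0.643%, 0.220% and 1.51% of the library's UMIs for the chondrocyte markers and 0.866%, 0.240% and 1.60% for the osteogenic ones. Osteoclast markers, 8 of 8 listed, summed to 107, 65.9 and 91.7, led by Acp5, and Oscar, Calcr, Dcstamp and Ocstamp were at 0 in the cluster of all 3 libraries. Over the whole library Oscar had 150, 392 and 361 UMIs, none of them in the cluster. Endothelial markers came to 10, 7 and 23 UMIs.

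The called genes with at least 100 UMIs in the 2 clusters were also ranked by ratio, with haemoglobin, mitochondrial, ribosomal protein and immunoglobulin genes and the marker lists left aside, other than the erythroid list and the lists chosen after the values were seen (plasma cell, eosinophil, primary granule). Of the 10 largest rises in UAC 7 had clone-form names, and the 3 others were Gzmbl3, Ccl4 and Cxcl10. Cxcl10, a chemokine, stood at 11.0, 220 and 383, or 19.9-fold higher (11.8 to 36.6) in UAC. AABR07034739.1 (ENSRNOG00000050000), of unknown kind in the tables, stood at 2093, 29745 and 31838. Of the 10 largest falls in UAC 9 had symbols, among them Sparc, Bgn, Fmod and Mgp of the extracellular matrix. Sparc stood at 1876, 93.4 and 882, or 20.1-fold lower (17.8 to 22.7). In UAC with miR-330 the 10 largest rises held 5 symbols (Col9a3, Panx3, Col5a2, Clec3a, Sox5), among them the cartilage collagen Col9a3. Its 10 largest falls held 7 symbols (Gzmbl3, Ms4a3, Prg2, Prss34, Epx, Mcpt2, Prss29), among them the eosinophil genes Prg2 and Epx and the mast cell protease Mcpt2.

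The erythroid lists were also read for the GATA motif, since GATA factors act at many erythroid genes. The letters AGATAA and TGATAA were searched on both strands of the window from 250 bases before to 50 after each gene's start, in RefSeq on GRCr8. They occur in 5105 of 27457 promoters (18.6%). They were found in 2 of 13 haem synthesis genes with a promoter entry, 7 of 18 membrane genes, 4 of 11 transcription factors, 5 of 24 maturation genes, 1 of 15 iron genes and 0 of 16 chaperone and redox genes. A match is a description of letters and not of binding. The windows of Alas2 (chrX:22895200-22895499, plus strand), Klf1 (chr19:40158602-40158901, minus strand) and Hba-a1 (chr10:15842531-15842830, minus strand) are shown 5′ to 3′, with the motif or its reverse in capitals. They belong to the gene that chose the cluster, a marker and a haemoglobin gene. Each holds a match, against 18.6% of all promoters, so they do not stand for the lists. Slc4a1 has no promoter entry.
Alas2: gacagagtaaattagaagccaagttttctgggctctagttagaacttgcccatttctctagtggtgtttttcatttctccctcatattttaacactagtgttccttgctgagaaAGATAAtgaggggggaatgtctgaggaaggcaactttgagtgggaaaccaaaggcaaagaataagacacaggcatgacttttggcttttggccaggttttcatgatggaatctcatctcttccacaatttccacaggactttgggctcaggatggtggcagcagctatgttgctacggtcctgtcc
Klf1: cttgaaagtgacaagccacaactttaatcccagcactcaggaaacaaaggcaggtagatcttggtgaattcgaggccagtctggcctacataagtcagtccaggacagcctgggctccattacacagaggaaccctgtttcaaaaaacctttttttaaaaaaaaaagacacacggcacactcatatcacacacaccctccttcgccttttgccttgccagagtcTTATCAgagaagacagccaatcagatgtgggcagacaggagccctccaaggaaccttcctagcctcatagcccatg
Hba-a1: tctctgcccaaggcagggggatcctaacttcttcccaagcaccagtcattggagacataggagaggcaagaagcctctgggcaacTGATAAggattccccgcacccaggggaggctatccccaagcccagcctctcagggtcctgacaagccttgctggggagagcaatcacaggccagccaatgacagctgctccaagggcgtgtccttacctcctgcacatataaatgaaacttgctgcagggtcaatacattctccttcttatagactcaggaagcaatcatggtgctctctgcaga

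The agent that sets UAC with miR-330 apart is a miRNA whose hairpin gives 2 mature arms. They are shown from RefSeq (GRCr8, chr1:87961227-87961248 and chr1:87961266-87961288, plus strand) with the seed, bases 2 to 8, in capitals, because the libraries do not count mature miRNAs. The arms have different seeds.
rno-miR-330-5p: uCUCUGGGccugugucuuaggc
rno-miR-330-3p: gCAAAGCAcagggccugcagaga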

How the data were processed

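Single-cell RNA was measured in 3 libraries (sham, UAC, UAC with miR-330), 1 per condition. For each, the authors deposited 1 table of clusters whose mean counts are a normalized signal, each gene's UMIs in a cluster over 1 number per cluster. The authors' log2 fold changes and adjusted p-values compare a cluster with the other clusters of its library and were not used. The submitters' processing notes name Cell Ranger 7.0, STAR and Seurat 4.0.1, with the builds GRCh38 and mm10, although the gene IDs are of rat; the build of the tables is not given in the sources used here.

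Each mean was divided by the smallest positive mean of its column, which gave whole numbers for 100% of values (tolerance 0.001), with a largest distance of 3.8e-08 in sham, 9.8e-08 in UAC and 1e-07 in UAC with miR-330. These were taken as UMIs. Depth was 77668015, 92629658 and 97255383 UMIs. Names on several IDs (101, 106 and 116) were summed, and a gene missing from a table was taken as 0. Of 447 list genes 414 were listed. Mitochondrial genes were found by name prefix, and LOC103694855 and LOC103694857 were counted as haemoglobin by assumption.

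Levels are UMIs per 1000000 UMIs without haemoglobin genes, with exact Poisson, binomial and conditional binomial 95% intervals. With 1 library per condition no count model was run, since there is no spread between replicates to fit. Counts of 0 are set at 3 UMIs per cluster for a ratio. List medians add 0.5 UMI to each count and use members with at least 10 UMIs. Genes named are the markers Alas2, Klf1 and Slc4a1, Epor, Ctgf, Fgfr1, the 20 most abundant, the 4 most abundant of each list with up to 2 largest called changes each way, and the 10 largest changes among genes with at least 100 UMIs. Outside this rule, Alad, Urod and Tfrc are named for their role, markers at 0 and members of short counts to complete these, and Mzb1, Hbe1 and Jchain were chosen after their values were seen. The members and lists were chosen with earlier results of these data known. Barcodes were not used, doublets were not treated and free RNA was not subtracted. The recovery and the call rule were tested on simulated data, and no result of that test is given here. Python 3.11.15, numpy 2.4.6, pandas 2.3.3, scipy 1.17.1 and matplotlib 3.10.9 were used.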

Additional observations from a re-analysis of the deposited data

How the results depend on the processing

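No named gene that was called reversed its direction in CPM of all UMIs, without haemoglobin, mitochondrial, ribosomal protein and immunoglobulin genes, or after centring on the median gene. Of 97 named genes called in UAC against sham, 83, 91 and 84 kept their call under these scalings, and of 122 in UAC with miR-330 against UAC, 114, 120 and 107 did. Hmox2 is not among these genes and lost its call in UAC with miR-330 under each scaling.

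The counts of called genes moved more. In UAC against sham 220 were higher and 330 lower in CPM of all UMIs, 195 and 350 after centring, 50 and 116 with at least 200 UMIs, and 235 and 857 with a fold of at least 1.5. With at least 10 UMIs 139 were higher and 876 lower. In UAC with miR-330 against UAC 644 were higher and 549 lower after centring, 435 and 134 with at least 200 UMIs, and 2104 and 456 with a fold of at least 1.5. With at least 10 UMIs 1858 were higher and 347 lower there. A higher UMI minimum leaves fewer genes compared, and a lower fold lets more pass. The scalings shift every ratio by 1 amount.

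Adding every cluster with at least 10% of the highest Alas2 level brought in cluster 11 of UAC, the Klf1 cluster, and no cluster of the other libraries. The split then turned over, with 4250 genes higher in UAC against sham (86.9% of those called) and 660 higher and 4021 lower in UAC with miR-330 against UAC. UAC then held 18.5% of the library's UMIs with 0.673% haemoglobin. The log2 ratio of Klf1 went from -2.61 to -0.21 in UAC against sham, and it reversed from 2.03 to -0.38 in UAC with miR-330 against UAC, not called in either case. Slc4a1 stayed lower at -2.45 and higher at 2.26. Only UAC had its Klf1 cluster added, so unlike clusters were compared for every gene here. The comparison of conditions thus depends on which cluster of UAC is taken.

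By the highest Klf1 the cluster share was 14.9% in UAC and 15.8% in UAC with miR-330, and by the highest Slc4a1 14.9% in UAC. In sham both pick the same cluster as Alas2. Without haemoglobin UMIs the shares were 1.64%, 3.61% and 2.49%.

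Chosen after seeing the data, leaving out abundant genes of clone-form name beside haemoglobin gave 169 higher and 387 lower in UAC against sham. Leaving out mitochondrial, ribosomal protein and immunoglobulin genes as well gave 287 and 288, against 124 and 466 without these classes alone. Also chosen then, leaving out the LOC names gave haemoglobin shares of 7.49%, 1.00% and 6.85%. Depth limits Klf1, with 32 UMIs in the UAC cluster, and Epor, with 13.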
